A study of Ovis aries with 6 samples.

Results

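The genes described here are 10 members of the Notch pathway, taken by gene symbol from a count table of 18865 genes in cultured sheep (Ovis aries) mitral valve endothelial cells (VECs), which line the surface of the valve's leaflets. They are the receptors NOTCH1, NOTCH2 and NOTCH4, the ligands DLL4, JAG1 and JAG2, and the targets HEY1, HEY2, HES1 and NRARP, and all 10 rows were present. Messenger RNA was sequenced after 24 h with ovine plasma of 2 kinds, drawn after myocardial infarction (post-MI, 3 libraries) or from naive sheep (naive, 3 libraries). The labels name no genotype, age, cell donor or clone, and do not say how long after infarction the plasma was drawn or whether replicates were separate cultures or used separate plasma donors. The p-values therefore reflect library-to-library spread that could be purely technical. The series title names the Wnt inhibitor sFRP3 and EndMT, the endothelial-to-mesenchymal transition by which endothelium gains mesenchymal features. Cells given sFRP3 were not analysed here.

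Notch is a pathway between touching cells. A Delta-like or Jagged ligand on one cell binds a Notch receptor on its neighbour, the receptor is cut by an ADAM protease and then by gamma-secretase, and its freed intracellular part joins the DNA-binding protein RBPJ to switch on repressors of the HES and HEY families and the feedback inhibitor NRARP. In endothelium the pathway sets arterial identity and limits sprouting, and in the embryonic heart it takes part in the EndMT that forms the valve cushions. The cut is made in protein, so RNA counts show how much message for each component was present and not how much receptor was active.

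Total counts per library were 14858472 to 20672794. Levels are given as CPM, the count scaled by a library size that TMM corrects for composition, and depend on gene length, so levels of different genes are not ranked here. Each of the 10 endothelial markers (PECAM1, CDH5, VWF, TEK, TIE1, KDR, CLDN5, EMCN, ERG and ESAM) was detected in every library, though CLDN5 had 4 counts in naive replicate 1. Their summed level was 2941 to 4103 CPM with post-MI and 2875 to 3200 CPM with naive plasma, most of it PECAM1 and CDH5. Mean CLDN5 was 13.2 CPM with post-MI and 2.72 CPM with naive plasma, without overlap, and mean VWF 33.3 and 12.4 CPM, with overlap. TEK and KDR had lower means with post-MI plasma, and the other markers higher ones. All 8 fibroblast and valve interstitial markers were detected as well, with sums of 10271 to 12492 and 5846 to 14380 CPM, most of it COL1A1 and COL3A1. Of 8 leukocyte markers, the defining gene PTPRC was at 0.64 to 1.33 CPM with post-MI and 0.14 to 0.35 CPM with naive plasma, and the list summed to 34.3 to 40.9 and 35.6 to 55.1 CPM, most of it CD14 and CD68. A pair of libraries stood apart. Naive replicate 1 had a score of -52.3 on the first principal component (59.2% of variance in the top 500 genes by variance), where the other 5 libraries scored -0.50 to 18.5. Post-MI replicate 3 had the interferon-induced gene MX2 at 328 CPM, against 2.19 and 2.30 CPM in the other post-MI and 0.70 to 8.69 CPM in the naive libraries.

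The comparison asked how post-MI plasma altered the message for Notch components. No member passed edgeR's quasi-likelihood test at an adjusted p of 0.05, and neither did any other of the 14326 genes tested (0% of genes called). In the receptors, all 3 post-MI libraries had more NOTCH1 and less NOTCH2 than all 3 naive libraries. These were the 2 members whose groups did not overlap. Across all genes tested, 8.32% lay higher and 7.82% lower with post-MI plasma without overlap, so 1 of 10 in each direction is near the background. The log2 fold changes, post-MI minus naive, were positive for 8 members and negative for 2, with a median of 0.43, beside 6862 positive and 7464 negative and a median of -0.01 over all genes tested.

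**Figure D1:**
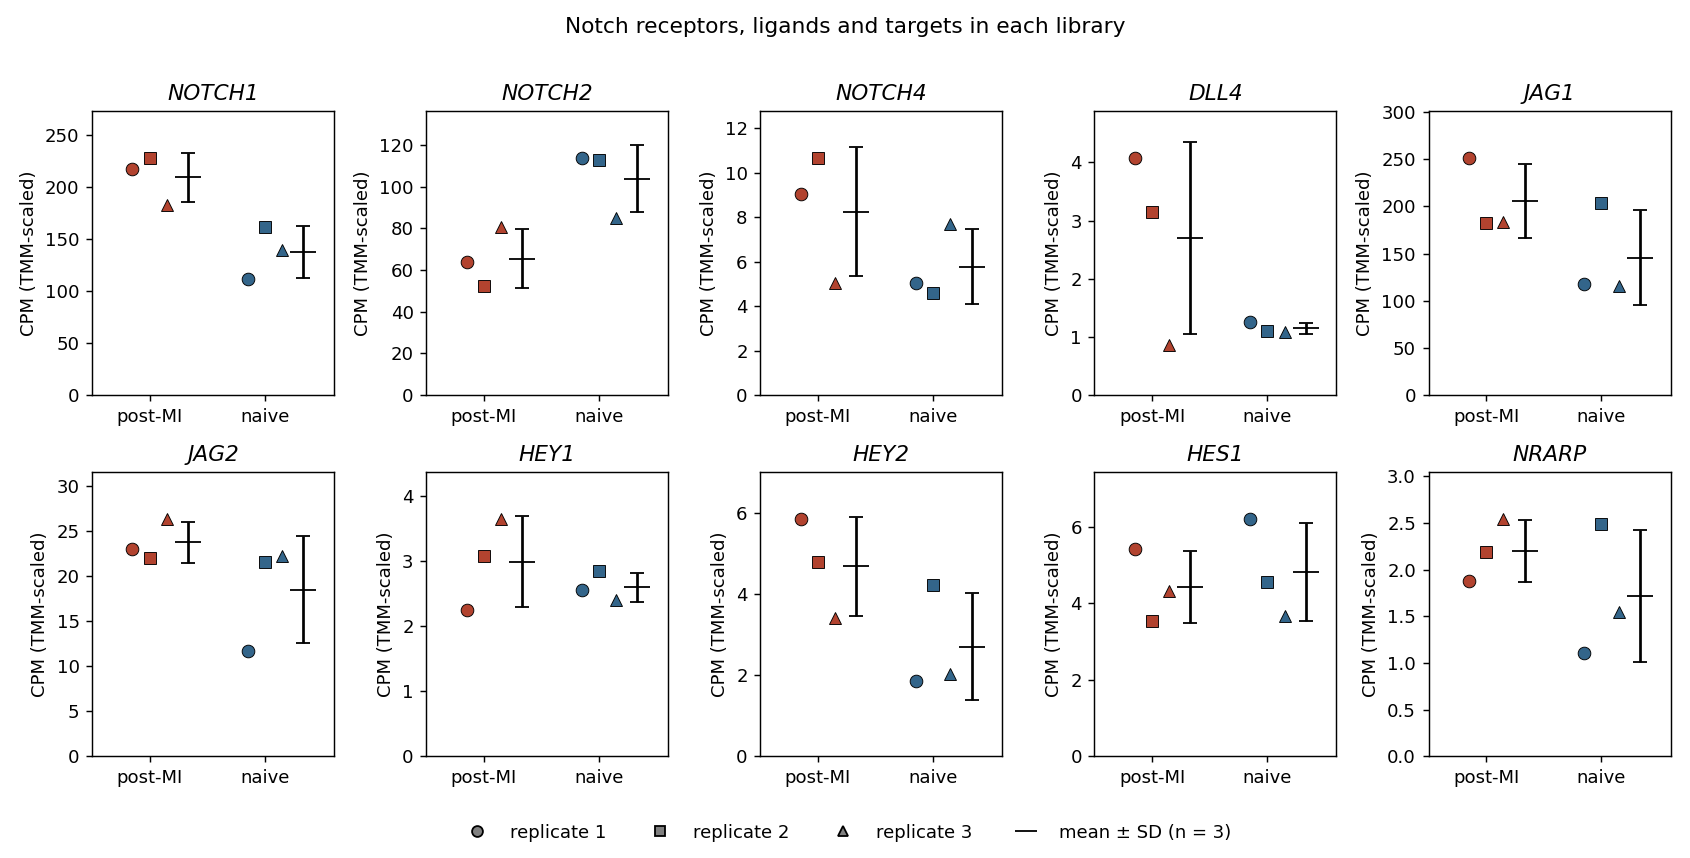
TMM-scaled CPM of the 10 members (vertical axes start at 0) in the 3 post-MI (red) and 3 naive (blue) libraries, with symbols for the replicate number and the mean ± SD of each group. The groups separate for NOTCH1 (post-MI above) and NOTCH2 (post-MI below), and DLL4 is high in post-MI replicates 1 and 2 but not in post-MI replicate 3.

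NOTCH1, the receptor best known in valve endothelium, was at 217, 227 and 182 CPM in post-MI replicates 1, 2 and 3, against 112, 162 and 139 CPM in naive replicates 1, 2 and 3. The lowest post-MI library lay above the highest naive library, and naive replicate 1 was the lowest of all. The means were 209 ± 23.9 and 137 ± 24.99 CPM (SD, n = 3 each), and the log2 fold change was 0.60 ± 0.18 (SE), which edgeR did not call (adjusted p = 0.506). Counts were 2232 to 4054 per library, so counting error is small beside the spread between libraries. With any 1 library left out the groups stayed apart, which follows from the full separation and adds no support to it. The log2 fold changes were then 0.48 (without naive replicate 1) to 0.74 (without naive replicate 2).

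NOTCH2, a receptor expressed in many cell types, ran the other way. It was at 63.9, 52.1 and 80.5 CPM in the post-MI libraries, against 114, 113 and 85.1 CPM in the naive libraries. The groups were separate, but post-MI replicate 3 and naive replicate 3 lay close to each other. The exact 95% Poisson intervals of these libraries, for counting error alone, overlapped at 76.3 to 84.8 and 81.3 to 89.2 CPM. The means were 65.5 ± 14.2 and 104 ± 16.2 CPM (SD, n = 3 each), and the log2 fold change was -0.67 ± 0.20 (SE; adjusted p = 0.521 by edgeR). The log2 fold change of NOTCH2 was -0.84 when post-MI replicate 3 was left out and -0.52 when post-MI replicate 2 was.

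NOTCH4, a receptor largely restricted to endothelium, was at 9.06, 10.7 and 5.02 CPM in the post-MI libraries, against 5.05, 4.57 and 7.71 CPM in the naive libraries. Post-MI replicate 3 lay within the naive range and naive replicate 3 near the other post-MI libraries, so the groups overlapped. Its log2 fold change was 0.51 ± 0.34 (SE; adjusted p = 0.646 by edgeR), and the groups separated without post-MI replicate 3. It ran from 0.29, when post-MI replicate 2 was left out, to 0.77, when naive replicate 3 was. Post-MI replicate 3 also had the lowest summed endothelial markers of the post-MI group, 2941 CPM, against 3773 and 4103 CPM in the other 2. Whether this bears on NOTCH4 was not tested, and in bulk samples fewer cells of a type and less RNA per cell cannot be told apart.

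Because a ratio of counts of 2 genes within a library needs no scaling, the receptor contrast was also read that way. Gene length sets the ratio itself but cancels between libraries. The log2 ratio of NOTCH1 to NOTCH2 counts was 1.77, 2.13 and 1.18 in post-MI replicates 1, 2 and 3, against -0.03, 0.52 and 0.71 in naive replicates 1, 2 and 3. Every post-MI value lay above every naive value, which follows from the separate NOTCH1 and NOTCH2 levels above and adds no support to them. The difference of the means was 1.29 (1.69 ± 0.48 and 0.40 ± 0.38, SD, n = 3 each). The pair was chosen after its values were seen, so this is a description with no test. The ligand JAG1 against NOTCH2 also separated, with log2 ratios of 1.98, 1.81 and 1.19 in the post-MI and 0.05, 0.85 and 0.44 in the naive libraries. Both ratios share NOTCH2, and JAG1 CPM itself overlapped between the groups. Further pairs were read, and none of them separated. NOTCH4 against NOTCH2 overlapped, at -2.82, -2.29 and -4.00 in the post-MI and -4.49, -4.62 and -3.47 in the naive libraries. So did DLL4 against JAG1, HEY2 against HEY1, HEY2 against HES1 and JAG1 against JAG2. NOTCH1 against JAG1 did not separate, at -0.21, 0.32 and -0.01 in the post-MI and -0.07, -0.33 and 0.27 in the naive libraries.

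**Figure D2:**
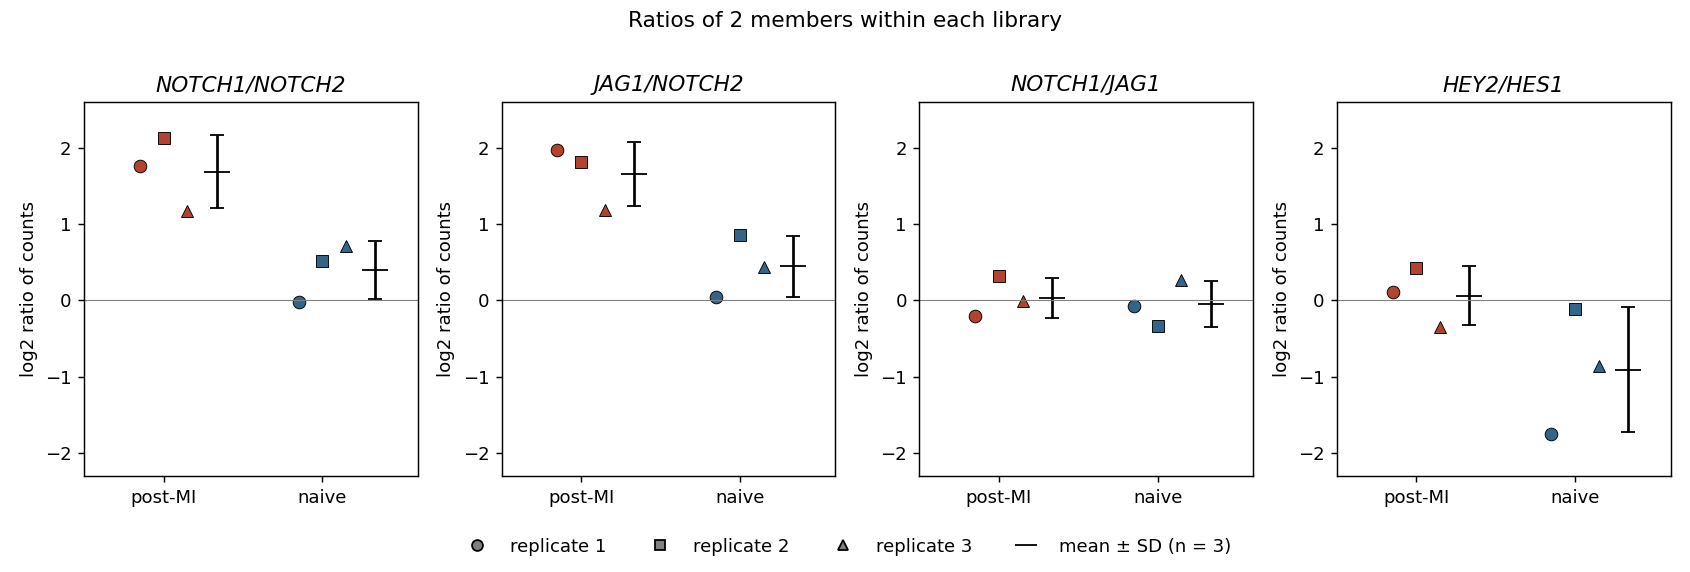
Log2 ratio of the raw counts of 2 members within each library for 4 of the pairs read, in post-MI (left, red) and naive (right, blue) libraries, with the mean ± SD of each group. The pairs not shown all overlap. NOTCH1/NOTCH2 and JAG1/NOTCH2 are above the naive range in all 3 post-MI libraries, while NOTCH1/JAG1 and HEY2/HES1 overlap.

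Among the ligands, DLL4, the Delta-like ligand of arterial and tip cells, had the largest log2 fold change of the members and, relative to the group's mean, the widest spread within a group (an SD of 61.3% of the mean over the post-MI libraries). It had 76, 46 and 15 counts in the post-MI libraries and 25, 19 and 23 in the naive libraries, or 4.07, 3.14 and 0.87 CPM against 1.25, 1.10 and 1.08 CPM. Post-MI replicates 1 and 2 were above all naive libraries, while post-MI replicate 3 was the lowest of the 6. Exact 95% Poisson intervals, which cover counting error alone, were 3.21 to 5.10, 2.30 to 4.19 and 0.48 to 1.43 CPM for the post-MI libraries and ran from 0.66 to 1.85 CPM over the naive libraries. Post-MI replicate 3 was thus below the other post-MI libraries by more than counting error. The log2 fold change was 1.23 ± 0.55 (SE; adjusted p = 0.566 by edgeR), and 3.27% of genes tested had one at least as large in size. It was 1.65 when post-MI replicate 3 was left out, and 0.80, over 1.5 times smaller, when post-MI replicate 1 was. Post-MI replicate 3 is the library with high interferon-induced genes, and their part in its DLL4 level was not tested.

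JAG1, the Jagged ligand whose loss in mice disturbs heart and vessel development, was at 251, 183 and 184 CPM in the post-MI libraries, against 117, 204 and 115 CPM in the naive libraries. Naive replicate 2 lay above post-MI replicates 2 and 3, so the groups overlapped, and the other naive libraries lay below all post-MI libraries. The log2 fold change was 0.50 ± 0.26 (SE; adjusted p = 0.588 by edgeR). It was 0.82 when naive replicate 2 was left out and 0.33 when post-MI replicate 1 was. JAG2, its relative, was at 22.9, 21.9 and 26.3 CPM in the post-MI libraries, against 11.6, 21.5 and 22.2 CPM in the naive libraries. Naive replicate 1 alone was low, and without it the log2 fold change was 0.12, against 0.36 ± 0.26 with all 6 libraries (SE; adjusted p = 0.661 by edgeR).

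Of the targets, HEY2, a repressor of the HEY family that favours arterial fate in zebrafish and mice, was at 5.84, 4.78 and 3.41 CPM in the post-MI libraries, against 1.85, 4.23 and 2.02 CPM in the naive libraries. As with JAG1, naive replicate 2 overlapped the post-MI range and the other naive libraries lay below it. Its log2 fold change was 0.80 ± 0.39 (SE; adjusted p = 0.575 by edgeR), 1.27 when naive replicate 2 was left out and 0.60 when naive replicate 1 was. HEY2 followed JAG1 across the 6 libraries more closely than any other pair of members did (Pearson r of log2 CPM = 0.96), and followed NOTCH1 next (r = 0.91). NOTCH2 ran opposite to NOTCH4 (r = -0.89) and NOTCH1 (r = -0.85). These values describe 6 libraries that differ in composition and in treatment, and carry no test.

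HEY1, the other HEY repressor measured, was at 2.25, 3.07 and 3.64 CPM in the post-MI libraries, against 2.55, 2.84 and 2.40 CPM in the naive libraries, and the log2 fold change was 0.20 ± 0.28 (SE; adjusted p = 0.826 by edgeR). The post-MI libraries held both the highest and the lowest value, and the log2 fold change was 0.04 when post-MI replicate 3 was left out and 0.37 when post-MI replicate 1 was. HES1, the general Notch target and helix-loop-helix repressor, was at 5.41, 3.55 and 4.33 CPM in the post-MI libraries, against 6.21, 4.57 and 3.67 CPM in the naive libraries. The groups overlapped throughout, the log2 fold change was -0.12 ± 0.28 (SE; adjusted p = 0.912 by edgeR), and its sign turned when naive replicate 1 (0.12) or post-MI replicate 2 (0.02) was left out. NRARP, which binds the Notch transcription complex and limits it, was at 1.88, 2.19 and 2.54 CPM in the post-MI libraries, against 1.10, 2.49 and 1.55 CPM in the naive libraries. With 22 to 44 counts per library its log2 fold change was 0.36 ± 0.37 (SE; adjusted p = 0.764 by edgeR), or 0.73 when naive replicate 2 was left out and 0.14 when naive replicate 1 was. The 4 targets thus had log2 fold changes between -0.12 and 0.80, and the groups of each overlapped.

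**Figure D3:**
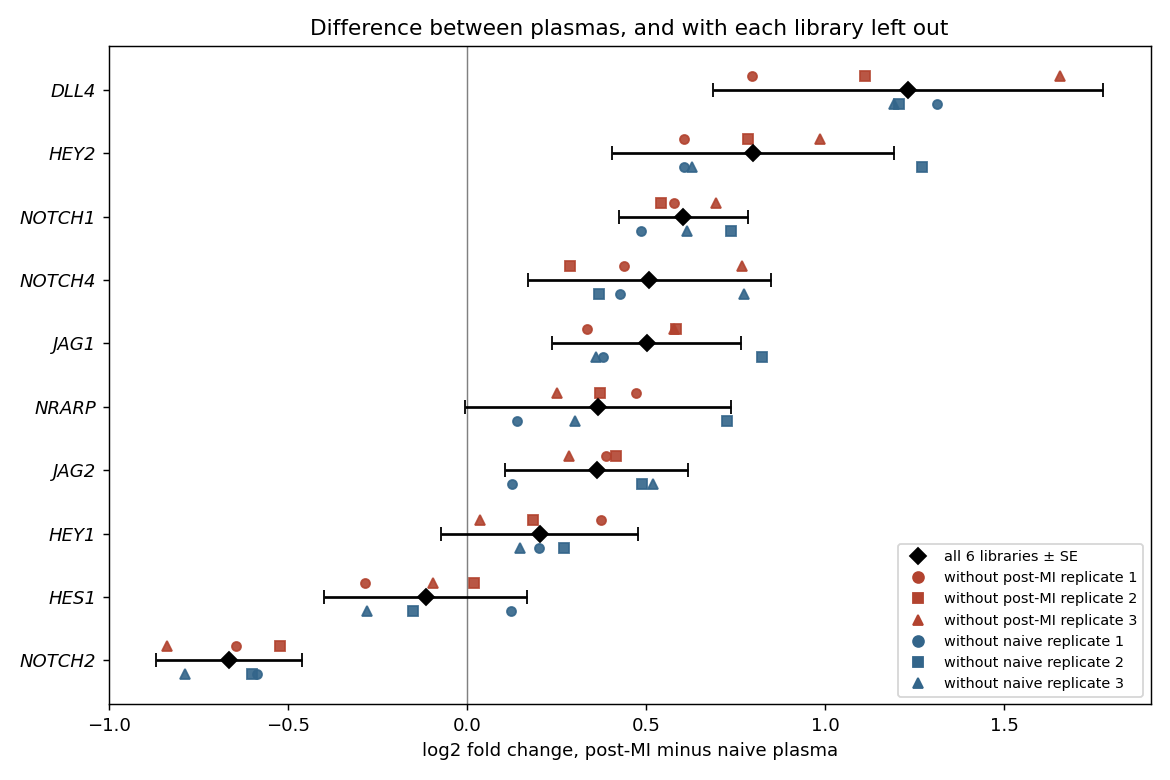
Log2 fold change of each member, post-MI minus naive plasma, with all 6 libraries (black, ± SE) and with each library left out in turn (red, a post-MI library left out; blue, a naive one). HES1 crosses 0, and every other member keeps its sign in every case. DLL4 runs from 0.80 to 1.65, and HEY1 comes as near to 0 as 0.04.

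Naive replicate 1, the library farthest out on the first principal component, had the lowest CPM of the 6 libraries for 4 members (NOTCH1, JAG2, HEY2 and NRARP) and the highest for 2 (NOTCH2 and HES1). It also had the lowest summed smooth muscle and pericyte markers, 902 CPM against 2391 to 5827 CPM in the other 5 libraries, and the lowest summed fibroblast and valve interstitial markers, 5846 CPM against 10271 to 14380 CPM. The part of these markers in the members' values was not tested. Post-MI replicate 3 was highest for 3 members and lowest for 1, as was post-MI replicate 1, which did not stand apart. The share of all genes with an extreme in each library is not given here, so these counts are not read as particular to the members. Without both naive replicate 1 and post-MI replicate 3, a fit chosen after seeing the data, NOTCH1 gave a log2 fold change of 0.58, NOTCH2 -0.75, NOTCH4 0.69, DLL4 1.74, HEY2 0.80, JAG1 0.46, JAG2 0.05, NRARP 0.03, HEY1 0.04 and HES1 0.15. In that fit edgeR called 3 genes, none of them a member. With libraries left out, groups without overlap were more common over all genes tested. Without both libraries 5 of the 10 members did not overlap, beside 46.8% of all genes tested. Without post-MI replicate 3 it was also 5 (NOTCH1, NOTCH2, NOTCH4, DLL4 and HEY2), beside 32% of genes. Without naive replicate 2 it was 5 (NOTCH1, NOTCH2, JAG1, HEY2 and NRARP), beside 30% of genes.

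At an unadjusted p under 0.05 edgeR gave 2 of the 10 members, NOTCH1 and NOTCH2, beside 8.68% of all genes tested. The DESeq2 Wald test called 0 members at an adjusted p of 0.05 (adjusted p = 0.127 for NOTCH1 and 0.170 for NOTCH2), beside 1.52% of all genes, and limma-voom called 0 of 14326 genes.

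By the measure of likeness over the 6 libraries (Pearson r of log2 CPM, genes averaging 3 or more in log2 CPM), the genes nearest to NOTCH1 were FLVCR1 (r = 0.994), TUT4 (0.993) and FAM43A (0.992). Nearest to NOTCH2 were TMEM50B (0.994), PLEKHA3 (0.987) and DPAGT1 (0.982), and nearest to DLL4 were DCAF4 (0.993), ENPP2 (0.984) and CMYA5 (0.983). With 6 libraries and so many genes, values this near to 1 are a description of these libraries.

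The rest of the pathway was read from 11 further lists, of which 93 genes outside the members were tested. Of these, log2 fold changes were positive for 50 and negative for 43, and 0 passed edgeR. Without overlap, 13 of the 93 lay higher and 6 lower, beside 8.32% higher and 7.82% lower over all genes tested. The lists were chosen with earlier results of these data known, so these counts carry no test. Among other receptors and ligands (6 of 10 tested, 2 positive, 4 negative, median -0.29), the ligand DLL1 was at 3.27, 2.46 and 2.37 CPM in the post-MI libraries, against 4.35, 3.76 and 6.06 CPM in the naive libraries. DLL1 thus lay lower without overlap (log2 fold change -0.81 ± 0.28, SE; adjusted p = 0.557 by edgeR), opposite in sign to DLL4. DLK2, a Delta-like protein without the domain that engages Notch receptors in the usual way, also lay lower without overlap (-0.75 ± 0.40, SE), at 9 to 12 counts with post-MI and 15 to 23 with naive plasma. EGFL7, a secreted endothelial protein reported to bind Notch receptors, gave 0.55 ± 0.21 (SE). NOTCH3, the receptor of vascular smooth muscle, overlapped widely at 30.4, 27.2 and 51.3 CPM with post-MI and 11.9, 47.4 and 42.4 CPM with naive plasma. It is named here to complete the receptors and was chosen after its values were seen. DLL3, DLK1, CNTN1 and DNER were below the count filter.

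The lists of genes that handle the receptors had medians near 0. Of 8 genes for receptor cleavage, 3 were positive and 5 negative (median -0.16). APH1A, a gamma-secretase subunit, was at 187, 192 and 147 CPM in the post-MI libraries, against 111, 120 and 132 CPM in the naive libraries, higher without overlap (0.54 ± 0.16, SE; adjusted p = 0.492 by edgeR). The other named subunit PSENEN gave -0.26 ± 0.14 and the sheddase ADAM17 -0.23 ± 0.18 (SE), or -0.01 for ADAM17 when naive replicate 1 was left out. Of 7 genes for glycosylation and maturation, 5 were positive and 2 negative (median 0.13) and all overlapped. The Fringe glycosyltransferases LFNG, RFNG and MFNG, which tune the response to Delta-like and Jagged ligands, gave 0.60 ± 0.51, 0.34 ± 0.24 and 0.23 ± 0.26 (SE). LFNG gave 0.20 and RFNG 0.12 when naive replicate 1 was left out, and MFNG gave 0.04 when post-MI replicate 1 was.

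On the ligand side, 4 of 8 genes for ubiquitination and endocytosis were positive and 4 negative (median -0.02). The endocytic adaptor EPN1 was at 120, 136 and 115 CPM in the post-MI libraries, against 93.9, 93.2 and 93.2 CPM in the naive libraries, higher without overlap (0.41 ± 0.13, SE; adjusted p = 0.529 by edgeR). The ubiquitin ligase NEURL1B also lay higher without overlap (1.43 ± 0.58, SE), at 28 to 33 counts with post-MI and 3 to 19 with naive plasma, and its relative NEURL1 gave -0.43 ± 0.23 (SE), or -0.27 when post-MI replicate 1 was left out. In receptor turnover, 8 of 12 tested genes were positive and 4 negative (median 0.05). DTX4, a ubiquitin ligase of the Deltex family, gave 1.72 ± 0.71, and FBXW7, which marks the intracellular part of Notch for destruction, 0.37 ± 0.16 without overlap, while the ubiquitin ligase NEDD4 gave -0.31 ± 0.14 without overlap (SE). The nearest libraries were post-MI replicate 3 and naive replicate 2, at 20.1 and 19.9 CPM for FBXW7 and 37.6 and 38.5 CPM for NEDD4. At 348 and 343 counts for FBXW7 and 652 and 665 for NEDD4, these gaps are within counting error. DTX4 was at 5.63, 6.22 and 1.85 CPM in the post-MI and 0.30, 2.03 and 1.83 CPM in the naive libraries, lowest of its group in post-MI replicate 3, as DLL4 was. In the nuclear complex and corepressors, 8 of 18 were positive and 10 negative (median -0.02). RBPJ, the DNA-binding partner of all Notch receptors, was at 30.7, 25.0 and 27.4 CPM in the post-MI libraries, against 32.3, 30.7 and 33.6 CPM in the naive libraries. The log2 fold change was -0.22 ± 0.13 (SE; adjusted p = 0.621 by edgeR). The groups did not overlap, but only by 30.66 CPM in post-MI replicate 1 against 30.74 CPM in naive replicate 2. At 572 and 531 counts this gap is within counting error. It also depends on the scaling, since by plain library totals these libraries change order and the groups overlap. The coactivator MAML3 gave 1.263 ± 0.53 at 10 to 31 counts per library, and the corepressor CTBP1 0.39 ± 0.18 without overlap (SE), or 0.25 when naive replicate 1 was left out.

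**Figure D4:**
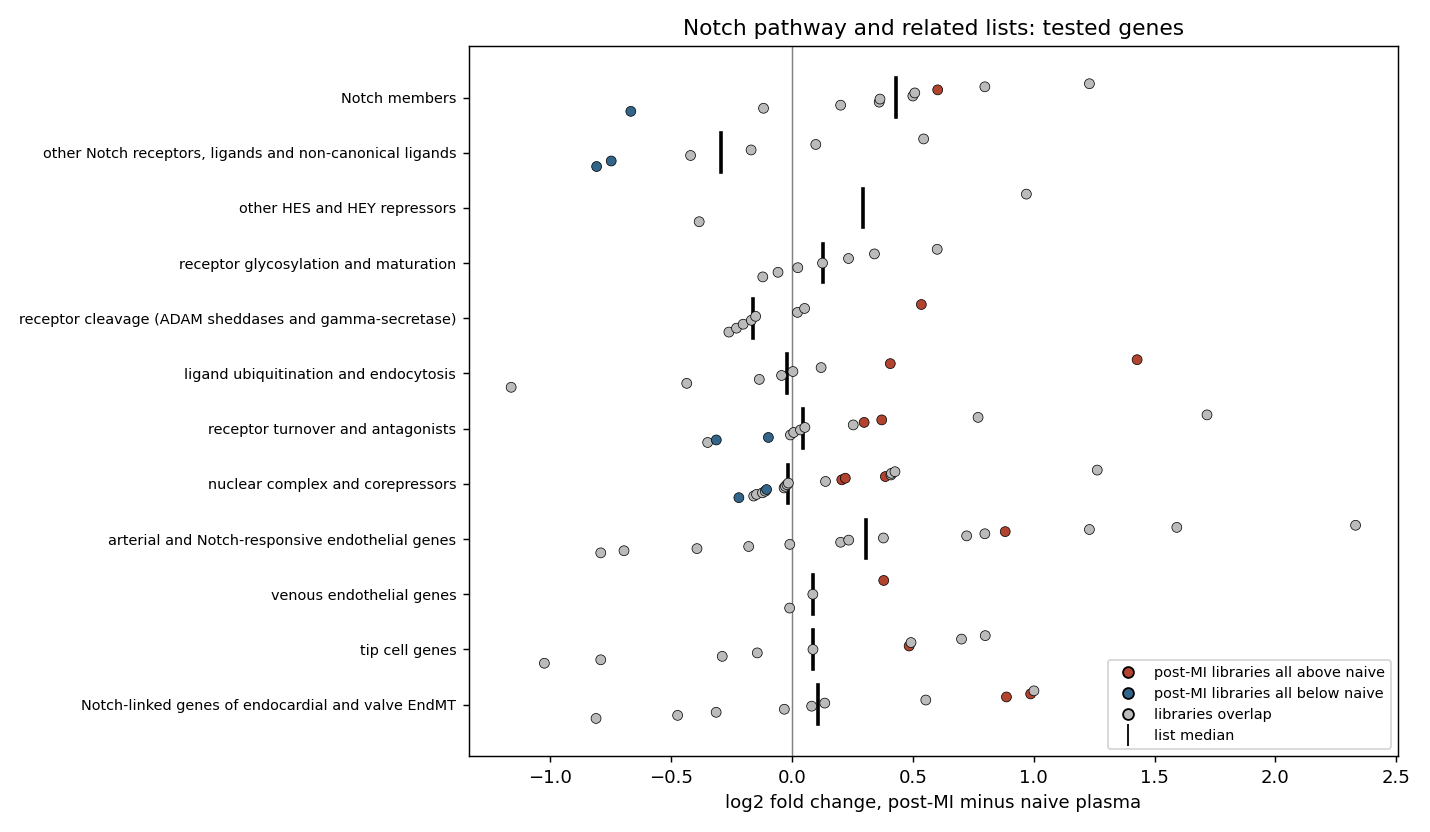
Log2 fold change, post-MI minus naive plasma, of every tested gene of the 10 members (top) and of 11 related lists, coloured by whether the post-MI libraries all lie above (red) or below (blue) the naive libraries; black bars are list medians. Medians run from -0.29 (other receptors and ligands) to 0.43 (the 10 members), and genes on both sides of 0 occur in each list.

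Genes of arterial, venous and tip cells, some of them known to respond to Notch, had log2 fold changes of both signs. No expected direction was set for each gene, so the signs are not read as a Notch response. In the arterial and Notch-responsive list, which holds DLL4, HEY1 and HEY2, 9 of 14 were positive and 5 negative (median 0.31). Without overlap, 1 of the 14 lay higher, beside 8.32% of all genes tested. The gap junction gene GJA4 was at 211, 321 and 56.7 CPM in the post-MI libraries, against 4.75, 55.1 and 57.1 CPM in the naive libraries, and overlapped through post-MI replicate 3 (2.33 ± 0.93, SE; adjusted p = 0.566 by edgeR). UNC5B, a netrin receptor of sprouting vessels, gave -0.69 ± 0.29 (SE), and -0.40 without naive replicate 1. Venous genes (3 of 5 tested) had a median of 0.09, with the coreceptor NRP2 at 0.38 ± 0.13 (SE) without overlap, the ephrin receptor EPHB4 at 0.09 ± 0.15 (SE) and NR2F2, which represses Notch signalling in veins, at -0.01 ± 0.16 (SE). NR2F2 gave 0.14 when naive replicate 3 was left out, and EPHB4 0.01 when naive replicate 1 was. Tip cell genes (9 tested, 5 positive, 4 negative) had a median of 0.09, with the laminin gene LAMA4 at 0.49 ± 0.19 without overlap and the growth factor PDGFB at 0.70 ± 0.32 (SE). The urokinase receptor PLAUR gave -1.02 ± 0.60 (SE), but 0.10 when naive replicate 1 was left out, and PDGFB then gave 0.44. Other HES and HEY repressors had 2 tested genes, HEYL at 0.97 ± 0.79 and HES2 at -0.38 ± 0.43 (SE). HEYL had 2 to 23 counts per library, and its log2 fold change was 2.14 when naive replicate 3 was left out and 0.49 when naive replicate 1 was. HES2 gave 0.32 when naive replicate 3 was left out.

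In the list of genes linked to Notch in endocardial and valve EndMT, 6 of 10 tested were positive and 4 negative (median 0.11). Without overlap, 2 of the 10 lay higher, beside 8.32% of all genes tested. SNAI2, a repressor that Notch can activate in endothelial cells, was at 46.0, 50.4 and 40.7 CPM in the post-MI libraries, against 13.8, 28.1 and 27.3 CPM in the naive libraries (0.99 ± 0.27, SE; adjusted p = 0.489 by edgeR). TGFB2, a growth factor of cushion EndMT, was at 57.3, 53.3 and 52.5 CPM in the post-MI libraries, against 14.7, 40.5 and 33.0 CPM in the naive libraries (0.89 ± 0.34, SE; adjusted p = 0.566 by edgeR). Naive replicate 1 was lowest for both, and without it they gave 0.73 and 0.58. The cardiac transcription factor GATA4 gave 0.55 ± 0.24 (SE) with overlap, and 0.83 when naive replicate 2 was left out. SNAI1, of the negative genes in this list, gave -0.81 ± 0.52 (SE) with overlap, and was chosen after its values were seen. Smooth muscle and pericyte markers, 7 of 8 in the table with RGS5 at 0 counts in every library, summed to 4303 to 5827 CPM with post-MI and 902 to 4817 CPM with naive plasma, and their part in these values was not tested.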

How the data were processed

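Per the labels' protocols, stranded mRNA libraries gave paired reads of 150 bp. The submitters' processing notes name the build Oar_v3.1 and the tools featureCounts 2.0.0, STAR 2.5.2b, DESeq2 1.26.0 and SAMtools 1.9. Annotation and strandedness of the counting: not given in the sources used here, so reads of overlapping or antisense genes could be shared. The authors deposited raw counts per gene symbol for the whole series. The deposited per-sample signal equals these counts times 1 factor per library (100% of non-zero counts within 0.01%), so it was used for that check alone. No coordinates or sequences are given.

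In R 4.3.3, genes were kept by filterByExpr of edgeR 4.0.16 (minimum count 10, minimum total 15), which left 14326 genes and all 10 members. Libraries were scaled by TMM and compared by the quasi-likelihood test of edgeR, with p-values adjusted by Benjamini-Hochberg over all genes tested, at 0.05. The SE divides the size of a log2 fold change by the root of its F. Log2 CPM used a prior count of 2. Alternatives were DESeq2 1.42.0, limma-voom (limma 3.58.1), other scalings and filters, a replicate block and each library left out. The tests were tried on simulated data with 200 changed genes. Members and lists were chosen with earlier results of these data known. Named genes were all members, up to 3 genes with the smallest p in each further list, and the 3 genes most like each of the 3 members with the smallest p. Within groups, libraries differed by more than sampling noise (chi-square per degree of freedom 17.1 to 162). Intervals cover counting error only, as reads here carry no molecular identifiers and may be copies.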

Additional observations from a re-analysis of the deposited data

How the results depend on the processing

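With edgeR 0 genes were called under each other scaling and filter, under the replicate block and with each library left out, limma-voom called 0, and the DESeq2 Wald test called 218 (152 higher, 66 lower), among them 0 members. Without both naive replicate 1 and post-MI replicate 3, a setting chosen after seeing the data, edgeR called 3 (CLEC1A, LOC101112335 and IL1R1, chosen after their values were seen). Genes at an unadjusted p under 0.05 were 1244, and 603 (without post-MI replicate 2), 695 (without post-MI replicate 1) to 1629 with single libraries left out and 2016 without the 2 libraries that stood apart. Members without overlap were 2 of 10 (16.1% of all genes tested), 2 to 5 with single libraries left out (20% to 32% of genes) and 5 without both libraries (46.8% of genes). Of 140 log2 fold changes of members under the alternatives, 137 kept their sign. The 3 that turned were of HES1, which ran from -0.29 to 0.12 with single libraries left out and gave 0.15 without both; the cause was not tested. The labels do not say that replicate numbers are pairs, and they were not taken as such. Deviations from the group mean correlated at 0.15, -0.11 and 0.09 between same-numbered libraries, and at -0.31 to 0.24 between the others. With 3 libraries per group these values cannot decide whether libraries were paired. With the replicate block 1168 genes had an unadjusted p under 0.05, NOTCH1 gave 0.61 and NOTCH2 -0.68. With 15 to 76 counts for DLL4 and 22 to 44 for NRARP, depth limits the precision of both. The planned search for a motif in promoters was not run, since no promoter sequence was used here.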
